A study of Mus musculus with 6 samples.

Results

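Crystallins are the abundant soluble proteins of the eye lens, and 10 of their genes, all annotated as protein coding, were followed here among the 31169 genes of a whole-retina count table. They were taken by gene symbol: the α-crystallins Cryaa and Cryab, the acidic β-crystallins Cryba1, Cryba2 and Cryba4, the basic β-crystallins Crybb1, Crybb2 and Crybb3, and the γ-type genes Crygs and Crygn. The genes were selected on their counts in these same libraries, which were already known to differ, so their levels are given as a description. Where calls of a fit across all genes are counted for them, these stand beside the share of all genes called and support nothing. The libraries were made from poly(A) RNA of whole retina of C57BL/6 mice, which had been injected at 1 month of age and were killed 4 weeks later, at 2 months. Saline was injected in the control group (3 libraries) and 15 µm polystyrene microbeads, which raise the pressure in the eye by blocking the outflow of aqueous humor, in the other (3 libraries). The study's methods give both groups as male mice injected in both eyes. The labels do not say which libraries came from separate animals, so p-values measure only the spread between these libraries, which may be technical. In the sample descriptions, the library identifiers of the saline group share one prefix and those of the microbead group a different one, so a set of libraries and the treatment cannot be told apart.

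In the lens, α-crystallins form large assemblies that act as molecular chaperones and belong to the small heat shock proteins, while β- and γ-crystallins share a common fold and are packed densely to give the lens its refractive index. Cryab is also made outside the lens, in muscle, glia and other stressed cells, and some α- and β-crystallins are known to be expressed at low level in retina. Transcription of many crystallin genes in lens fibers depends on large Maf proteins together with Pax6, Sox and Prox1, and Cryab can in addition be induced through heat shock factors. A bulk level mixes these sources: fewer cells of a type and less RNA per cell cannot be told apart in these data.

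Of the 10 genes, 4 lie in 2 neighboring pairs on chromosome 5 (positions in GRCm38). Cryba4 (chr5:112246493-112252518, minus strand) and Crybb1 (chr5:112255815-112269585, plus strand) are read away from each other with 3296 bases between them, and Crybb2 (chr5:113058258-113070117) and Crybb3 (chr5:113075839-113081584) both lie on the minus strand, 5721 bases apart. Their upstream sequences are shown because the genes of each pair are close neighbors and yet differed in how their counts were spread over the libraries. Each window ends at the annotated start of the gene, and capitals mark TGCTGA, a binding element of Maf proteins, on either strand (TCAGCA on the strand shown), and TATAAA, the TATA box. The sequences are from RefSeq (GRCm38.p6) and read 5′ to 3′ on the strand of the gene, for Cryba4 chr5:112252519-112252768 (minus), for Crybb1 chr5:112255570-112255814 (plus), for Crybb2 chr5:113070118-113070367 (minus) and for Crybb3 chr5:113081585-113081834 (minus).
Cryba4: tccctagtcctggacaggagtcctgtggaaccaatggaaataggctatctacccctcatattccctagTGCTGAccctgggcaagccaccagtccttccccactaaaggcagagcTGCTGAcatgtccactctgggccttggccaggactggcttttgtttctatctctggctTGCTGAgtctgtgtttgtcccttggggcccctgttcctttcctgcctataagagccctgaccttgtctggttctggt
Crybb1: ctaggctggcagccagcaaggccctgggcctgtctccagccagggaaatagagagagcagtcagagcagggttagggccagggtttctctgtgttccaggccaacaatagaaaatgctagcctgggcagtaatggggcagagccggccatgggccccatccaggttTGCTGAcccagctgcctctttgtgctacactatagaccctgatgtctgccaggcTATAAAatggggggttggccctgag
Crybb2: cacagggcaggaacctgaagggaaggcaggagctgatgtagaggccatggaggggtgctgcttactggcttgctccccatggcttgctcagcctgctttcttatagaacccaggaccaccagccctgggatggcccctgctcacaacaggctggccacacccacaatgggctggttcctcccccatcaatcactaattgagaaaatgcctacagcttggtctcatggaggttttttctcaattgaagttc
Crybb3: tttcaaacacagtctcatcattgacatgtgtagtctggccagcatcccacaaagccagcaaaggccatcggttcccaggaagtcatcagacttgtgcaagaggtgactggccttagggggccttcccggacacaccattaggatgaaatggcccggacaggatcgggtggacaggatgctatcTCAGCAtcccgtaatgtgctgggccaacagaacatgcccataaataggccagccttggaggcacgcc

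The Cryba4 window holds 3 copies of TGCTGA, those of Crybb1 and Crybb3 hold 1 each, and that of Crybb2 holds 0. A promoter entry was found for 9 of the 10 crystallin genes, all but Cryab. Within the 250 bases upstream of the RefSeq start, 8 of the 9 held TGCTGA on either strand, against 16.1% of 32851 mouse promoters of the same length. TATAAA was present upstream of 3 of the 9 (Cryba1, Crybb1 and Crygs), against 12.4% of all promoters. GAANNTTC, a pair of heat shock element units in which N is any base, was present in 0 of the 9 and in 6.69% of all promoters. A match is a description of the letters and not a bound site.

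The remaining genes are spread over 6 chromosomes. Cryaa lies at chr17:31677807-31681733 (plus strand), Cryba1 at chr11:77718615-77725283 (minus strand) and Cryba2 at chr1:74889934-74893143 (minus strand). Crygs lies at chr16:22805203-22811577 (minus strand), Crygn at chr5:24751003-24758008 (minus strand) and Cryab at chr9:50751325-50756636 (plus strand). Cryab overlaps the small heat shock gene Hspb2 on the opposite strand by 1030 bases, and the strand setting of the counting is not given in the sources used here. Hspb2 itself had 0.0622 to 0.455 counts per 1000000 (CPM) in the 6 libraries. No 100-base stretch of the transcripts of 8 of the 10 genes occurs in transcripts of another locus, whereas 3.56% of the stretches of Cryaa and 9.92% of those of Cryab do.

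The library totals were 36085737, 46481382 and 37546884 counts for the saline replicates and 19834366, 13574949 and 15647739 for the microbead replicates. At these depths, 3 counts correspond to 0.0622 to 0.0856 CPM in the saline and 0.154 to 0.217 CPM in the microbead libraries, which is taken as the limit that a count of 0 allows. Rod genes, checked against the labeled tissue, summed to 54679 to 81693 CPM, and the lens-specific connexin gene Gja3 had 0 counts in every library other than saline replicate 3. Saline replicate 3 stood apart from the other 5 libraries, and differences between the groups are therefore also given without it.

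All 10 crystallin genes had their highest level in saline replicate 3, which held 0.0497% of its counts on them against 0.00376% to 0.00835% in the other 5 libraries. Among the 21946 genes with a total of at least 15 counts, 22.9% were highest in that library. Without Cryab, the crystallins summed to 407 CPM in saline replicate 3, 36.2 CPM in saline replicate 1 and 2.51 CPM in saline replicate 2, and to 1.03, 2.02 and 2.01 CPM in the microbead replicates. The ratio of the group means, saline over microbead, was 88.1, and 11.5 without saline replicate 3. The saline libraries differed up to 162-fold among themselves, and saline replicate 2 lay close to the microbead libraries.

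Cryaa encodes αA-crystallin, the α subunit found mainly in the lens. Its counts were 585, 13 and 7377 in the saline replicates and 0, 2 and 0 in the microbead replicates, or 15.5, 0.270 and 210.5 CPM against 0, 0.144 and 0 CPM. The groups did not overlap, but saline replicate 2 was within a few reads of the microbead libraries, and the mean of 75.4 ± 117 CPM (SD, n = 3) in saline retinas was set by 1 library, which made up 93.0% of the CPM summed over all 6. Pooled over libraries, the level was 1605 times higher in saline (95% counting interval 444 to 13256) and 169 times higher without saline replicate 3 (46.7 to 1403). These intervals cover counting error only and not the spread between retinas.

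Cryab encodes αB-crystallin, the α subunit that is also a general stress chaperone, and it behaved unlike the other 9 genes. It was well detected in every library, at 43.9, 33.7 and 125 CPM in saline and 66.3, 61.0 and 36.2 CPM in microbead retinas (means 67.6 ± 50.1 and 54.5 ± 16.0 CPM, SD, n = 3 each). The groups overlapped, with the highest and the lowest library both in the saline group. The log2 fold change after microbead injection was -0.31 (standard error 0.45) with all libraries and 0.49 (standard error 0.27) without saline replicate 3, so that the direction turned on that library. Per kilobase of exon, Cryab was the highest crystallin in 5 of the 6 libraries, at 22.8 to 44.8 CPM per kb, and in saline replicate 3 it was second, at 84.6 CPM per kb, to Cryaa at 101 CPM per kb.

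**Figure D1:**
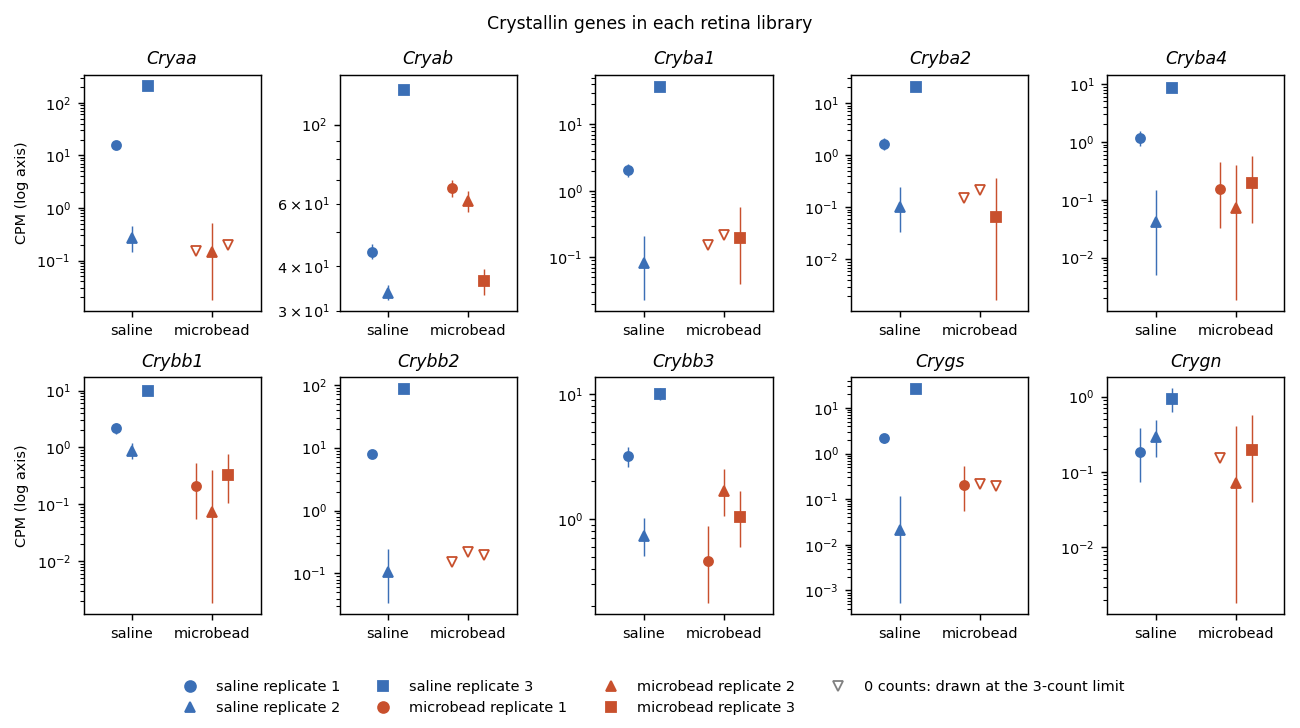
CPM (log axis, a separate range for each gene) of the 10 crystallin genes in the 3 saline and 3 microbead libraries, with 95% counting intervals; open triangles mark 0 counts, drawn at the level of 3 counts. Saline replicate 3 is the highest point in every panel, and Cryab is the gene whose microbead libraries lie among the saline ones well above the detection limit.

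The acidic β-crystallins are structural partners of the basic ones in mixed oligomers. Cryba1 was at 2.05, 0.0830 and 36.7 CPM in saline and at 0, 0 and 0.195 CPM in microbead retinas. Cryba2 was at 1.65, 0.104 and 20.5 CPM in saline and at 0, 0 and 0.0650 CPM in microbead retinas. Both thus followed the order of Cryaa within the saline group, and in saline replicate 2 they rested on 4 and 5 counts, which do not differ detectably from 0 at the depth of the microbead libraries. For Cryba4, the saline replicates gave 1.17, 0.0415 and 8.47 CPM and the microbead replicates 0.154, 0.0722 and 0.195 CPM. The groups were separate for Cryba2 only and overlapped for Cryba1 and Cryba4, in both of which saline replicate 2 fell below a microbead library. Pooled saline over microbead ratios were 183 (counting interval 62.6 to 890) for Cryba1, 316 (56.5 to 12496) for Cryba2 and 19.7 (9.47 to 49.4) for Cryba4. Without saline replicate 3 they were 15.3 (5.05 to 75.8), 38.0 (6.59 to 1522) and 3.72 (1.67 to 9.78).

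Among the basic β-crystallins, Crybb2, a major protein of the adult lens, had 303, 5 and 2980 counts in saline and 0 in each microbead library. At 8.05, 0.104 and 85.0 CPM in saline, its mean of 31.1 ± 46.9 CPM (SD, n = 3) was at least 165-fold above the mean level of 3 counts per microbead library, and at least 21.6-fold above it without saline replicate 3. Saline replicate 2 alone was below that limit. The neighboring gene Crybb3 gave a different picture, with 3.16, 0.726 and 10.01 CPM in saline and 0.463, 1.66 and 1.04 CPM in microbead retinas. Its groups overlapped, and it was the only crystallin other than Cryab with more than 5 counts in every microbead library (9, 23 and 16 counts). Crybb1 had 2.20, 0.871 and 9.90 CPM in saline and 0.206, 0.0722 and 0.325 CPM in microbead retinas, and its groups did not overlap. In saline replicate 2, where Cryaa had 13 counts, Crybb1 had 42 and Crybb3 had 35.

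Crybb1 and Crybb3 were, with Cryab, the 3 crystallins that passed the filter on low counts of edgeR's fit. Of these, 1 passed the threshold of an adjusted p-value under 0.05 (Crybb1, lower after microbead), where 12.8% of the 17707 genes tested passed in either direction and 6.31% were lower. These values are of the contrast on which the genes were chosen, and nothing is read from them. The log2 fold change of Crybb1 was -4.37 (standard error 0.98), and -2.88 (standard error 0.71) without saline replicate 3, where 1 of the 3 was again called against 8.42% of 17577 genes in either direction and 4.1% lower. That of Crybb3 was -2.15 (standard error 0.85), and -0.90 (standard error 0.70) without it, beside a median of -0.03 over all tested genes in both fits. Crybb1 passed the filter only through its saline libraries, and the 7 crystallins outside the fit did not reach the minimum count in enough libraries. Without the filter, edgeR called 8 of the 10, where 11.3% of 31169 genes were called, and with robust dispersions added it called 1, where 9.74% were. DESeq2 called 8 of the 10, against 11.6% of 31147 genes, and limma-voom called 0 of the 3 tested, against 12.5%. The count with edgeR was 7 of 9 tested without saline replicate 2 and 0 of 10 tested without each of the microbead replicates. The share of all genes called in these fits is not given here.

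Crygs encodes γS-crystallin, the γ-crystallin that goes on being made in the adult lens. It was at 2.18, 0.0207 and 25.5 CPM in saline and at 0.206, 0 and 0 CPM in microbead retinas, so that saline replicate 2, with 1 count, lay below microbead replicate 1 with 4. Crygn, which lies between the β- and γ-crystallins in sequence, was low throughout, with 7, 14 and 32 counts in saline and 0, 1 and 3 in microbead retinas. It was the one crystallin with more CPM in saline replicate 2 (0.290) than in saline replicate 1 (0.186), although the ratio of replicate 1 to 2, 0.640, had a counting interval of 0.219 to 1.70 that includes 1. Pooled saline over microbead ratios were 98.2 (38.2 to 361) for Crygs and 5.33 (1.96 to 20.3) for Crygn, and 11.8 (4.42 to 44.2) and 2.98 (1.004 to 11.9) without saline replicate 3. Over all crystallins, 4 of 10 had no overlap with the microbead group lower (Cryaa, Cryba2, Crybb1 and Crybb2), where 18.8% of genes with at least 15 counts in all had none. Without saline replicate 3 the count was again 4, against 24.9%, since leaving that library out cannot make separate groups overlap. For Cryaa, Cryba2 and Crybb2 the separation rested on 13, 5 and 5 counts in saline replicate 2.

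How far a gene rested on saline replicate 3 differed between the crystallins. That library held over 90% of the CPM summed over the 6 libraries for 5 genes: Cryba1 (94.0%), Cryaa (93.0%), Cryba2 (91.9%), Crygs (91.4%) and Crybb2 (91.3%). It held 83.9% for Cryba4, 72.9% for Crybb1, 58.7% for Crybb3, 55.1% for Crygn and 34.2% for Cryab. In the table as a whole, 0.679% of genes with at least 15 counts had over 50% of their CPM there, as 9 of the 10 crystallins did. Among the 15105 genes that averaged at least 1 CPM the share was 0.205%, or 31 genes, of which 8 were crystallins.

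The same split appeared when the saline libraries were set against each other. From saline replicate 1 to saline replicate 3, Cryaa was 13.5-fold higher (counting interval 12.4 to 14.8), and Cryba1 (17.9, 14.2 to 22.9), Cryba2 (12.4, 9.59 to 16.4), Crybb2 (10.6, 9.38 to 11.9) and Crygs (11.7, 9.32 to 14.9) were close to that ratio. Cryba4 (7.25, 5.27 to 10.2), Crybb1 (4.49, 3.53 to 5.78), Crybb3 (3.17, 2.57 to 3.93), Crygn (4.91, 2.13 to 13.2) and Cryab (2.85, 2.69 to 3.02) were below it. The intervals of Cryba1, Cryba2, Crygs and Crygn overlapped that of Cryaa, with Crygn resting on 7 and 32 counts. The intervals of Crybb2, Cryba4, Crybb1, Crybb3 and Cryab did not reach that of Cryaa.

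Expressed per 100 Cryaa counts, Crygs was at 14.0 (counting interval 10.99 to 17.7) in saline replicate 1 and 12.1 (11.3 to 13.0) in saline replicate 3, and Cryba2 was at 10.6 (8.02 to 13.8) and 9.73 (9.003 to 10.5). Crybb2 was at 51.8 (44.9 to 59.6) and 40.4 (38.7 to 42.2), and its intervals did not overlap. Crybb1 was at 14.2 (11.1 to 17.9) in replicate 1, 4.70 (4.21 to 5.24) in replicate 3 and 323 (170 to 656) in replicate 2. Crybb3 followed the same course at 20.3 (16.6 to 24.8), 4.76 (4.26 to 5.30) and 269 (139 to 555). Cryab was at 282, 59.5 and 12500 per 100 Cryaa counts in replicates 1, 3 and 2. In saline replicate 2, where Cryaa was nearly absent, Cryab, Crybb1 and Crybb3 thus had more counts than Cryaa, and Crygn about as many (108 per 100, 47.0 to 249).

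Per kilobase, the order of the crystallins changed between libraries. In saline replicate 3 it ran from Cryaa (101 CPM per kb), Cryab (84.6), Crybb2 (42.3), Crygs (29.1), Cryba1 (23.0) and Cryba2 (17.2) to Cryba4 (10.1), Crybb1 (10.1), Crybb3 (4.29) and Crygn (1.14), and of these neighbors Cryba4 and Crybb1 could not be told apart by their counting intervals. In saline replicate 2 Cryab, at 22.8 CPM per kb, was followed by Crybb1 (0.884), Crygn (0.362) and Crybb3 (0.311), with Crygn (0.198 to 0.607) and Crybb3 (0.217 to 0.433) overlapping, and by Cryaa (0.130). In the microbead libraries Cryab (24.5 to 44.8 CPM per kb) was far above the other crystallins, none of which passed 0.712 CPM per kb (Crybb3 in microbead replicate 2), and their order changed from library to library at counts too low to tell neighbors apart. Between saline libraries the levels of 1 gene differed by up to 1229-fold (Crygs, replicate 3 over replicate 2), so that no order of saline group means is given.

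The γ-crystallin cluster on chromosome 1, which is not among the 10 genes, is known from the fibers of the young lens and was highest in a different library. Crygb had 64, 0 and 7 counts in the saline replicates, Crygc 31, 1 and 19, and Crygd 23, 0 and 2, and all of them had 0 in the microbead replicates. Saline replicate 3 held 0.117 times the Crygb level of saline replicate 1 (counting interval 0.0454 to 0.256), where it held 13.5 times the Cryaa level. Summed over Cryga, Crygb, Crygc, Crygd and Crygf, the levels were 3.19, 0.124 and 0.884 CPM in saline and 0, 0.144 and 0 CPM in microbead retinas. These genes share 8.73% to 38.0% of their 100-base stretches with other loci, so that counts within the cluster are uncertain.

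**Figure D2:**
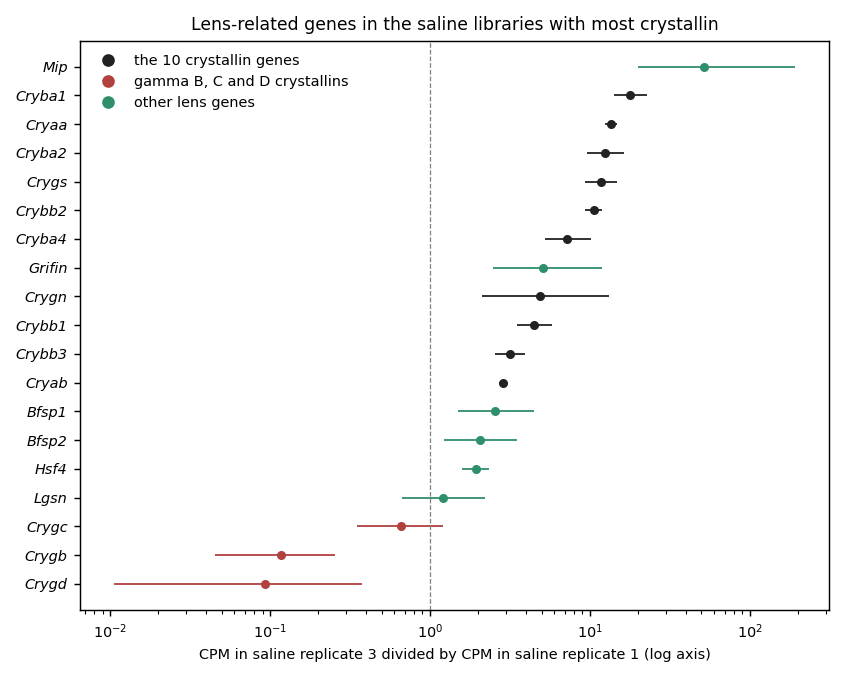
Ratio of the CPM in saline replicate 3 to that in saline replicate 1 (log axis) with 95% counting intervals for the crystallins (black), 3 genes of the γ-crystallin cluster (red) and other lens genes (green). Cryaa, Cryba1, Cryba2, Crybb2 and Crygs lie between 10.6 and 17.9, Crybb1, Crybb3 and Cryab between 2.85 and 4.49, and Crygb and Crygd below 1.

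Lens genes that are not crystallins were examined from a list of 12, of which 11 had a row. Mip, the lens fiber aquaporin, had 194 counts in saline replicate 3 and 4, 2, 2, 1 and 0 in the other libraries. Gja3, a lens connexin, had 11 counts there and 0 elsewhere, and Foxe3, a factor of the lens epithelium, had 10 against 0 to 1. In saline replicate 1, where Cryaa stood at 15.5 CPM, Mip was at 0.106 CPM, which is close to the level of 3 counts, and saline replicate 3 exceeded it 52.1-fold (counting interval 20.0 to 193). In all, 7 of the 11 genes were highest in saline replicate 3. Among defining markers, Dnase2b, the nuclease of fiber maturation, had 1 count in saline replicate 1 and 0 in every other library.

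Between the groups, the lens list did not separate. The summed CPM of its 11 genes were 6.59, 11.2 and 21.1 in saline and 9.52, 8.38 and 12.4 in microbead retinas (means 13.0 ± 7.44 and 10.1 ± 2.08, SD, n = 3 each, two-sided exact permutation p = 0.8, where 0.1 is the smallest that 3 against 3 allows). In every library but saline replicate 3, most of this sum was Hsf4, a heat shock factor needed in lens development, at 4.33 to 10.5 CPM over the 6 libraries, while in saline replicate 3 Hsf4 was 8.39 of the 21.1 CPM. Without saline replicate 3 the saline over microbead ratio of the sum went from 1.28 to 0.879. With edgeR, 4 of the genes were tested (Bfsp1, Bfsp2, Lgsn and Hsf4) and 0 passed an adjusted p-value of 0.05. At an unadjusted p under 0.05 the count was also 0, and limma-voom called 0. DESeq2 called 0 of 10, of which Gja3, Dnase2b, Birc7 and Foxe3 had no adjusted p-value, and it gave no p-value for Mip. EdgeR without the filter called 1. Of all genes, 12.8% were called by edgeR, 12.5% by limma-voom, 11.6% by DESeq2 and 11.3% by edgeR without the filter. The part of lens tissue in the crystallin levels was not tested beyond these values.

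Markers of other neighboring tissues were ordered differently within the saline group. The 6 genes of the retinal pigment epithelium summed to 14.1, 60.1 and 255 CPM in saline and 142, 115 and 135 CPM in microbead retinas, led by Ttr and Rgr, with saline replicate 3 highest but saline replicate 1, the next highest for 8 of the 10 crystallins, lowest. The 7 genes of pigmented cells summed to 3.03, 5.47 and 17.1 CPM in saline and 14.4, 15.0 and 10.2 CPM in microbead retinas. Cornea genes summed to 0.531, 10.5 and 7.08 CPM in saline and 0.309, 0.867 and 0.455 CPM in microbead retinas, led by Krt14 and Krt5, keratins of basal epithelium, whose levels were 6.26 and 3.75 CPM in saline replicate 2 and 2.996 and 2.74 CPM in saline replicate 3. With all libraries, none of these 3 lists had a gene past the threshold in edgeR, where 12.8% of all tested genes passed. The pigment epithelium had 1 gene at an unadjusted p under 0.05 and pigmented cells 0. No cornea gene passed the filter on low counts, so that none was tested. DESeq2 called 1 pigment epithelium gene, 2 cornea genes and 0 of pigmented cells, against 11.6% of all genes. Limma-voom called 0, against 12.5%. Without saline replicate 3, edgeR called Rdh5 (log2 fold change 2.22, adjusted p = 0.00967), Ttr (2.00, adjusted p = 0.0397) and Dct (1.94, adjusted p = 0.0165) higher after microbead injection. These were 2 of the 6 pigment epithelium and 1 of the 6 pigmented cell genes tested in that fit, where 8.42% of all tested genes were called in either direction. Leaving out saline replicate 3 took the saline over microbead ratio of the sums from 0.84 to 0.284 for pigment epithelium, from 0.647 to 0.322 for pigmented cells and from 11.1 to 10.1 for cornea.

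Ciliary epithelium genes summed to 200.2, 169 and 177 CPM in saline and 78.5, 88.4 and 86.4 CPM in microbead retinas (exact permutation p = 0.1, the smallest possible). Nearly all of this sum was Aqp1, a water channel that other ocular cells make as well (means 179 and 79.8 CPM). Of this list of 3, Aqp1 alone was called, as lower (log2 fold change -1.17, standard error 0.16, adjusted p = 0.00894 with edgeR). Optc went the other way without overlap but did not pass (0.98, standard error 0.45, adjusted p = 0.167 with edgeR). Car12 did not pass either (0.12, standard error 0.84). Without saline replicate 3 the log2 fold change of Aqp1 was -1.20 (adjusted p = 0.00996 with edgeR). Without microbead replicate 3 its adjusted p-value was 0.0599. Müller glia genes, which mark a glial cell known to make Cryab, were highest in saline replicate 3 for 7 of 8 and summed to 5119, 5979 and 9005 CPM in saline and 5466, 5284 and 4509 CPM in microbead retinas. Ganglion cell genes summed to 354, 893 and 1136 CPM in saline and 1084, 811 and 962 CPM in microbead retinas. The saline over microbead ratio was 1.32 for Müller glia and 0.834 for ganglion cells, and 1.09 and 0.655 without saline replicate 3. With edgeR, 2 of the 8 Müller glia genes were lower after microbead injection, where 6.31% of all tested genes were. Without saline replicate 3 it was 1 of the 8, where 4.1% of all tested genes were lower. With all libraries, 0 of the 8 ganglion cell genes passed, with 1 at an unadjusted p under 0.05 and 0 called by DESeq2 or limma-voom. The part of these cell types in the crystallin levels was not tested.

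**Figure D3:**
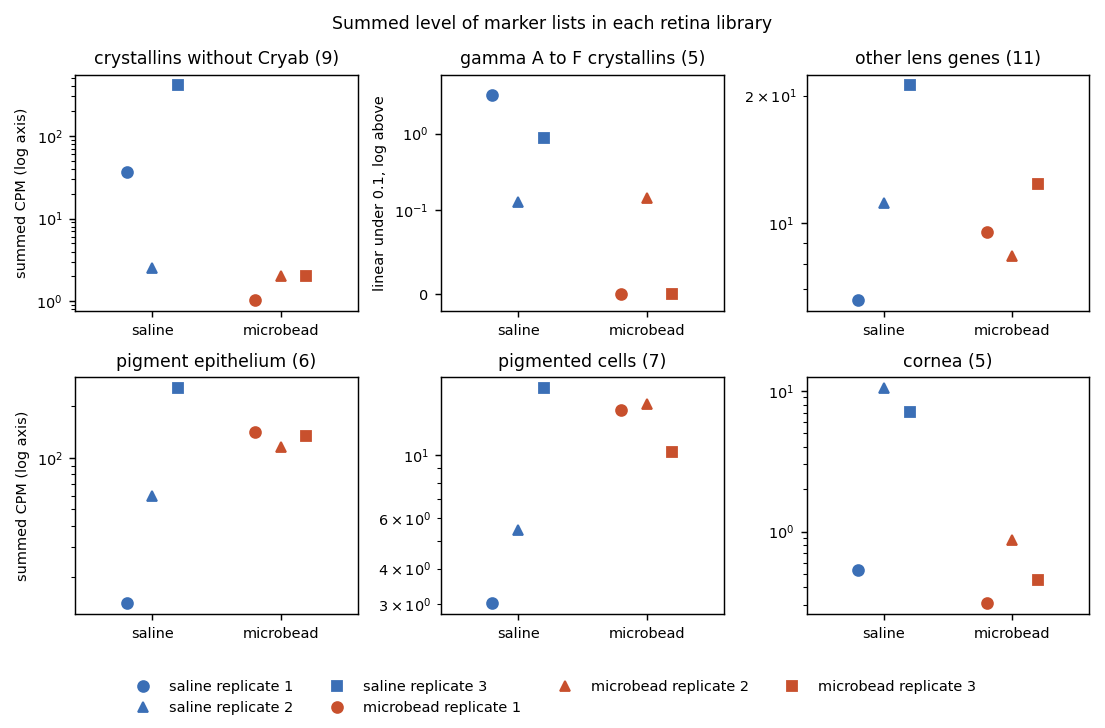
Summed CPM (log axis, with a linear range near 0 for the γ-crystallins) of 6 gene lists in each library, with the number of genes in brackets. Crystallins without Cryab run from 2.51 to 407 CPM within the saline group, the γ-crystallin cluster is highest in saline replicate 1, pigment epithelium genes are lowest there, and cornea genes are highest in saline replicates 2 and 3.

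Small heat shock proteins other than the α-crystallins were taken as the family in which Cryab is placed. Of 9 genes, 5 were tested with edgeR, 2 were higher after microbead injection and 3 did not pass, with 0 lower, where 6.46% of all tested genes were higher. Hspb6, a cytosolic partner of αB-crystallin, was at 135, 106 and 118 CPM in saline and 233, 244 and 224 CPM in microbead retinas, without overlap (log2 fold change 0.97, standard error 0.17, adjusted p = 0.0143 with edgeR). Hspb11 was at 5.98, 7.34 and 10.6 CPM in saline and 30.1, 19.4 and 17.9 CPM in microbead retinas, also without overlap (1.50, standard error 0.29, adjusted p = 0.0174 with edgeR). Despite its name, Hspb11 is known as a component of the intraflagellar transport machinery of cilia. It was listed by name, and the counts, sum and median given for the list include it. The 9 genes summed to 152, 126 and 149 CPM in saline and 278, 274 and 255 CPM in microbead retinas (exact permutation p = 0.1, the smallest possible), most of it Hspb6. The median log2 fold change of the 5 genes was 0.62, beside -0.03 over all tested genes.

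Both calls held without saline replicate 3 (log2 fold changes 0.96 and 1.75, adjusted p = 0.0218 and 0.0122 with edgeR). They were lost without saline replicate 2 and without microbead replicate 3, where 0 of the family passed, and Hspb11 was lost without microbead replicate 1, with adjusted p-values from edgeR of up to 0.07 for Hspb6 and 0.0731 for Hspb11 over the libraries left out. Hspb1, a widely induced chaperone, was at 7.07, 4.65 and 8.76 CPM in saline and 4.37, 1.44 and 4.16 CPM in microbead retinas and did not pass (-1.03, standard error 0.43, adjusted p = 0.14 with edgeR, and -0.81, adjusted p = 0.281, without saline replicate 3). Hspb8 was at 3.35, 7.34 and 10.96 CPM in saline and 9.62, 8.38 and 7.41 CPM in microbead retinas and did not pass either (0.23, standard error 0.39, adjusted p = 0.723 with edgeR, and 0.66, adjusted p = 0.272, without saline replicate 3).

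Of 9 transcription factors known to regulate crystallin genes in lens, 7 were tested, 1 was higher and 1 lower after microbead injection, and 5 did not pass, where 12.8% of all tested genes passed in either direction. Hsf1, the main heat shock factor, was at 42.1, 29.9 and 25.3 CPM in saline and 60.4, 63.0 and 92.2 CPM in microbead retinas (log2 fold change 1.15, standard error 0.25, adjusted p = 0.0221 with edgeR). Sox2, which in the adult retina marks Müller glia and some amacrine cells, was at 41.3, 38.4 and 68.6 CPM in saline and 20.6, 21.7 and 21.3 CPM in microbead retinas (-1.22, standard error 0.24, adjusted p = 0.0175 with edgeR). Both passed without saline replicate 3 as well (1.00 and -0.91, adjusted p = 0.0398 and 0.0218 with edgeR). Leaving out microbead replicate 3 lost both, leaving out saline replicate 2 lost Hsf1, and leaving out microbead replicate 1 or 2 lost Sox2.

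Pax6, the eye selector gene, was at 244, 331 and 314 CPM in saline and 419, 486 and 425 CPM in microbead retinas, without overlap, and did not pass (0.58, standard error 0.18, adjusted p = 0.064 with edgeR, and 0.62, adjusted p = 0.0933, without saline replicate 3). DESeq2 called it, and the adjusted p-value ran from 0.029 to 0.0803 over the alternatives that kept all libraries. Maf was at 26.4, 29.0 and 29.9 CPM in saline and 24.96, 17.3 and 15.1 CPM in microbead retinas and did not pass either (-0.57, standard error 0.22, adjusted p = 0.111 with edgeR, and -0.53, adjusted p = 0.197, without saline replicate 3). Pitx3, a lens factor, had 0 counts in the microbead libraries and at most 0.257 CPM in saline, and Sox1 was at or near 0 throughout. Among the enzymes named for their crystallin role in other animals, Crym, a thyroid hormone-binding protein, was lower (-1.41, standard error 0.37, adjusted p = 0.0387 with edgeR). Cryz, Cryzl1 and Cryl1 did not pass. Crym was at 213, 73.5 and 94.2 CPM in saline and 49.9, 56.9 and 36.3 CPM in microbead retinas. Saline replicate 1 was thus far above the rest. Over the libraries left out, its log2 fold change ran from -1.69 to -0.82. The call of Crym held without saline replicate 3 (-1.59, adjusted p = 0.0297 with edgeR) and was lost without each of the microbead replicates (up to 0.156), with limma-voom (0.0536) and with robust dispersions and no filter (0.126).

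**Figure D4:**
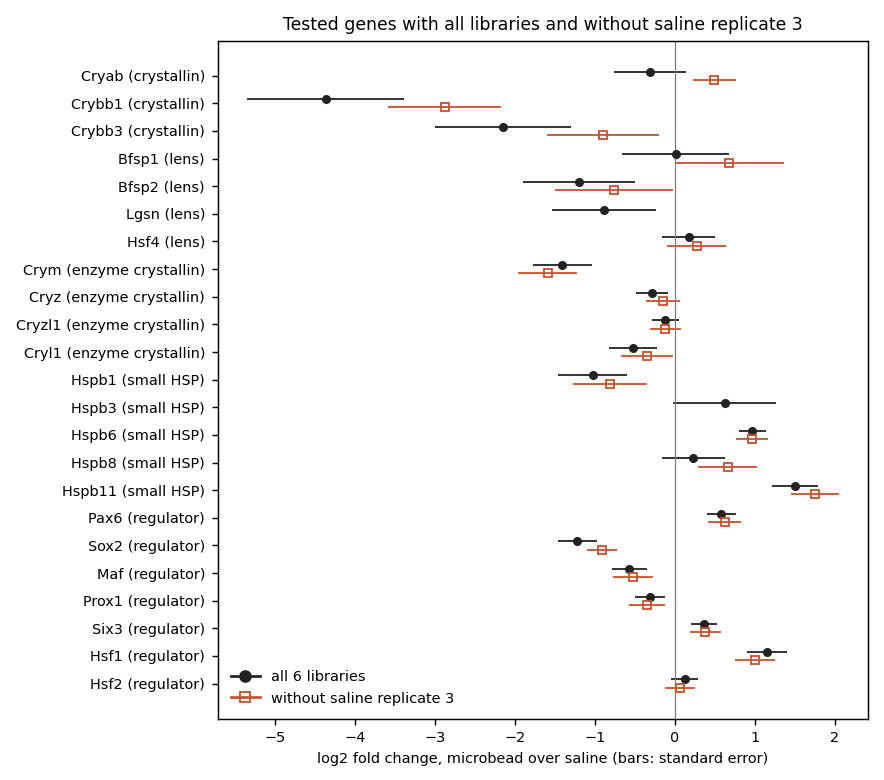
Log2 fold change, microbead over saline, from edgeR with its standard error for the tested crystallins, other lens genes, enzyme crystallins, small heat shock proteins and crystallin regulators, with all 6 libraries (filled circles) and without saline replicate 3 (open squares). Cryab changes sign between the fits, from -0.31 to 0.49, and Crybb1 moves from -4.37 to -2.88, while Hspb6 (0.97 and 0.96), Hspb11, Sox2 and Hsf1 stay on their side.

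The genes whose levels ran most like the crystallins were ranked by the root mean square difference of centered log2 CPM over the 6 libraries, among the 15085 genes that averaged 1 CPM or more, passed the filter on low counts and are not crystallins of the 10. For the 6 β-crystallins and Crygs summed, whose own centered values had a root mean square of 2.66, the 5 closest genes were Socs3 (0.858), Cyr61 (0.892), Fos (0.946), Junb (1.06) and Cebpb (1.21). Fos and Junb are immediate early transcription factors, which rise within minutes of a stimulus, Cyr61 is a matricellular growth factor target, and Socs3 and Cebpb respond to cytokines. Fos was at 26.2, 12.4 and 1179 CPM in saline and 9.73, 10.8 and 16.4 CPM in microbead retinas, and Socs3 at 28.3, 6.70 and 228 CPM in saline and 6.69, 8.16 and 5.52 CPM in microbead retinas. As with the summed crystallins (20.5, 1.95 and 196 CPM in saline and 1.03, 1.81 and 1.82 CPM in microbead retinas), saline replicate 3 was far above the rest and saline replicate 1 next.

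For Cryab, with a root mean square of 0.64 of its own, the closest genes were Fmod (0.251), Ctgf (0.251), Id2 (0.271), Ddr2 (0.301) and Zic2 (0.311). Fmod and Ddr2 encode an extracellular matrix protein and a collagen receptor, Ctgf a matricellular protein and Id2 and Zic2 regulators of transcription. Ctgf was at 20.8, 15.6 and 65.4 CPM in saline and 25.7, 20.1 and 19.9 CPM in microbead retinas, with saline replicate 3 highest as for Cryab. The libraries were few and 1 of them was far from the rest, so that this likeness describes mainly that library.

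**Figure D5:**
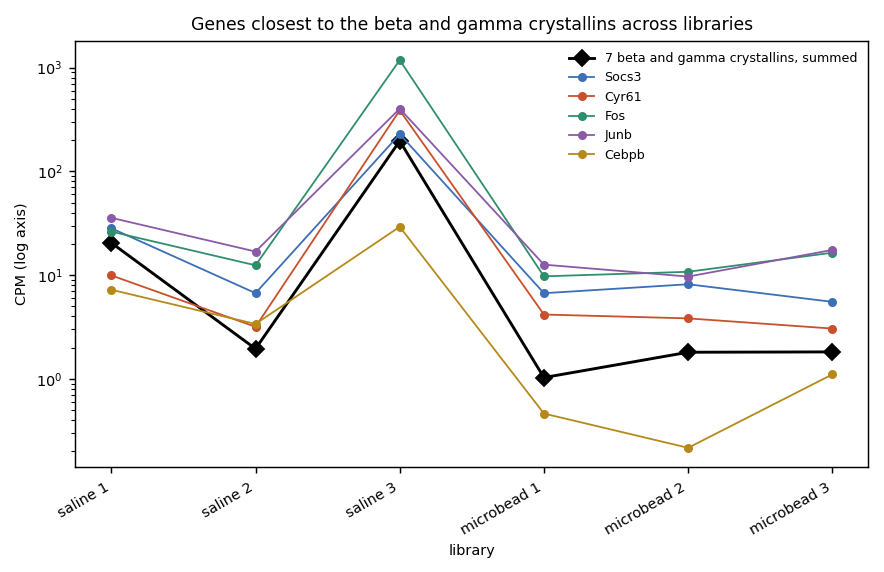
CPM (log axis) in each library of the 6 β-crystallins and Crygs summed (black) and of the 5 genes closest to them in centered log2 CPM; lines join the points of a gene and stand for no order of libraries. All of them peak in saline replicate 3, where the crystallin sum is 196 CPM and Fos is 1179 CPM, and are next highest in saline replicate 1.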

How the data were processed

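Poly(A) libraries of whole retina, 3 from saline and 3 from microbead injections, were grouped by their sample labels. Per the study's methods and the labels, the authors aligned 100-base paired-end reads with STAR 2.5.3a to GRCm38.p5 (GENCODE vM12) and deposited raw counts per gene from featureCounts 1.15.2. The treatment of reads that map to several genes is not given in the sources used here. The deposited table also holds columns of the authors' own DESeq2 comparison (mean level, fold changes, p-values, calls), which were not used.

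Low genes were removed with filterByExpr (minimum count 10, minimum total 15) and TMM factors were computed. The groups were then compared by edgeR 4.0.16 (quasi-likelihood test, R 4.3.3). Tests were two-sided, p-values were adjusted by Benjamini-Hochberg over every gene tested, and the threshold was 0.05. The standard error is the size of the log2 fold change divided by the root of the F statistic. CPM are counts per 1000000 of the scaled library size, and CPM per kb divide them by the exon length in GENCODE vM21, from which positions were taken. Counting intervals are 95% exact (Poisson for a level, Clopper-Pearson for a ratio). Motifs were searched in RefSeq promoter windows.

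The members, gene lists and tests were chosen with earlier results of these data known. All 10 crystallins are named. Of the lists of lens genes, small heat shock proteins, regulators and enzyme crystallins, the genes past the threshold are named, with those at 0 and, chosen after their values were seen, some that did not pass. Of the cell type lists, the sums and at most 2 leading genes are named, with Rdh5 and Optc after their values were seen. As closest to the crystallins and to Cryab, 5 genes each are given. The alternatives were RLE, upper-quartile and no scaling, no filter, a minimum of 10 counts per library, limma-voom (limma 3.58.1), DESeq2 1.42.0, an adjusted p-value under 0.01, the replicate number as a block and each library left out, and, chosen after seeing the data, robust dispersions with and without the filter. The fits were tested on simulated data. No library was a copy of another: the chi-square per degree of freedom between libraries of a group was 20.1 or more, and each was kept as 1 replicate.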

Additional observations from a re-analysis of the deposited data

How the results depend on the processing

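The number of crystallins past the threshold, 1 with edgeR, was 8 without the filter on low counts and with DESeq2, and 0 with at least 10 counts in every library, with limma-voom and with an adjusted p-value under 0.01. It ran from 0 to 7 when single libraries were left out, with 3 to 10 of the crystallins tested. The cause of these shifts was not tested. The 0 lens genes past the threshold became 1 without the filter (Mip). The 2 small heat shock genes became 1 with the replicate block, which lost Hspb11 (adjusted p = 0.0512 with edgeR), and 0 at an adjusted p-value under 0.01, and ran from 0 to 2 over the libraries left out. The 2 regulators likewise became 1 with the block, which lost Hsf1 (adjusted p = 0.0578 with edgeR), and 0 at the stricter threshold, and ran from 0 to 2. The block also lost Crym (adjusted p = 0.0643 with edgeR). The number of crystallins past the threshold stayed at 1 with the replicate block. Robust dispersions and the other scalings left each of these 4 counts within 1.5 times its value.

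Without saline replicate 3 the log2 fold change of Cryab turned from -0.31 to 0.49, and leaving out any library gave -0.64 to 0.49 for Cryab, -4.86 to -2.88 for Crybb1 and -2.66 to -0.90 for Crybb3. The log2 ratio, microbead over saline, of the summed lens genes turned from -0.36 to 0.19 without that library, in a range of -0.68 to 0.19, and that of the summed crystallins went from -1.94 to -0.05, in a range of -2.45 to -0.05. That sum is mostly Cryab without saline replicate 3, and without Cryab the crystallins were still 11.5 times higher in saline. Replicate numbers were not taken as a pairing: the correlations of deviations between saline and microbead libraries of the same number were -0.0351, 0.136 and 0.00997. The block lowered the calls over all genes from 2261 to 905.

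For 8 of the 10 crystallins no microbead library held more than 5 counts, and these libraries are shallower than the saline ones, so that differences under 0.217 CPM could not be seen in them. With the spread of the saline group set by 1 library, group means of Cryaa, Cryba1, Cryba2, Crybb2 and Crygs describe that library more than the group.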

Other observations

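Beside the 8 crystallins, 23 genes with a mean of at least 1 CPM had over 50% of their CPM, summed over the 6 libraries, in saline replicate 3. Among them were Cyr61 (94.1%), Fos (94.0%), Zfp36 (90.0%), Egr1 (86.2%), Arc (85.9%), Fosb (84.7%), Junb (81.3%), Ier2 (74.6%), Dusp1 (71.5%), Egr2 (69.5%), Jun (67.2%) and Atf3 (50.4%), which are known as genes induced early after a stimulus, Id3 (62.1%), Klf2 (58.6%), Id1 (54.4%) and Hes1 (50.8%), which encode other regulators of transcription, and Gm5869 (51.1%). Col8a2 (50.5%), a collagen of the corneal endothelium, was there as well. These genes were chosen after their values were seen, and their relation to the crystallins was not tested, since it rests on 1 library.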
